A study of Mus musculus with 6 samples.

Results

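Axon guidance genes encode the secreted and membrane-bound cues that steer growing axons and the receptors that read them. They were described here in bulk RNA-seq libraries of retinal ganglion cells from mice, which send their axons through the optic nerve, at the adult stage. The genes were chosen by symbol: the semaphorins, plexins and neuropilins, the ephrins and Eph receptors, the Slits and Robos, the netrins, and the netrin receptors Dcc, Neo1 and Unc5a to Unc5d. The rule found 68 of the 22413 rows in the count table, made of 33 ligands, 34 receptors and Plxna4os1, a non-coding transcript of the opposite strand at Plxna4 that the symbol rule takes in. In 3 libraries, called Cre-positive, both Tgfbr1 alleles were floxed and 1 Vglut2-Cre allele was present (Tgfbr1flx/flx;Vglut2Cre/+). The other 3 came from mice with the same floxed alleles and no Cre (Tgfbr1flx/flx;Vglut2+/+) and are called Cre-negative. Tgfbr1 is the gene of the type I receptor of transforming growth factor beta, and Vglut2-Cre acts in cells that use Slc17a6, the gene for vesicular glutamate transporter 2. The comparison asks what the presence of Cre changes in cells whose Tgfbr1 alleles are floxed. The labels name neither the way the cells were isolated nor whether animals were pooled for a sample, so the p-values speak for the variation among these libraries, and that may be technical.

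Each system pairs a family of cues with a family of receptors. Semaphorins act through plexins, with neuropilins as the binding partner for most class 3 members. Ephrins are tethered to the cell surface and bind Eph receptor tyrosine kinases in contacting cells, Slits repel axons through Robo receptors, and netrins attract through Dcc or repel through Unc5 receptors. In the developing mouse retina, netrin 1 and Dcc guide ganglion cell axons out at the optic disc, Slits and Robo2 shape the path to the optic chiasm, and ephrin-A gradients map axons onto their targets. Many of the same proteins also pattern blood vessels. In adult neurons several are known as inhibitors of axon regrowth.

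Library totals ran from 8098891 to 21126291 counts in the Cre-positive group and from 7486359 to 16372260 in the Cre-negative group. Genes with at least 10 counts, the threshold for detection used throughout, numbered 6738, 7209 and 5790 in Cre-positive 1, 2 and 3, against 4258, 4463 and 4863 in Cre-negative 1, 2 and 3. The targeted gene, Tgfbr1, had 46, 0 and 793 counts in the Cre-positive libraries and 1, 0 and 1538 in the Cre-negative libraries. These counts cover the whole gene, so they do not check the labels. Of 15 ganglion cell markers, 9, 12 and 11 were detected in the Cre-positive libraries and 10, 10 and 7 in the Cre-negative libraries. Pou4f2, a transcription factor that defines many ganglion cells, had at most 1 count in any library. Cre-negative 3 stood apart. Its 14 endothelial markers summed to 8394 CPM (counts scaled to the library's total), against 36.1 to 851 CPM in the other 5 libraries. Its 15 ganglion cell markers summed to 930 CPM, against 3858 to 5480 CPM in the other 5. It held 0 counts of Slc17a6, but 4203 of Rbpms and 1394 of Pou4f1. Other libraries lacked single markers too, with 1 count of Rbpms in Cre-positive 1 and 0 of Pou4f1 in Cre-negative 1. For 13 genes followed with each library left out in turn, fold changes that moved by over 1.5-fold are given with their range. In bulk libraries, fewer cells of a type and less RNA per cell cannot be told apart.

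Axon guidance genes were detected unevenly, and in no more than 5 of the 6 libraries. Of the 68 rows, 20, 22 and 13 were detected in Cre-positive 1, 2 and 3, against 16, 13 and 20 in Cre-negative 1, 2 and 3. The means were 18.3 ± 4.73 for the Cre-positive group and 16.3 ± 3.51 for the Cre-negative group (SD, n = 3 each), and the groups overlapped. Over all genes the Cre-positive libraries detected more than every Cre-negative library. Thus the share of guidance rows detected was near the share of all genes in Cre-positive 1 (29.4% against 30.1%) and Cre-positive 2 (32.4% against 32.2%), and below it in Cre-positive 3 (19.1% against 25.8%). In the Cre-negative group it was 23.5% against 19.0% of all genes in library 1, 19.1% against 19.9% in library 2 and 29.4% against 21.7% in library 3.

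**Figure D1:**
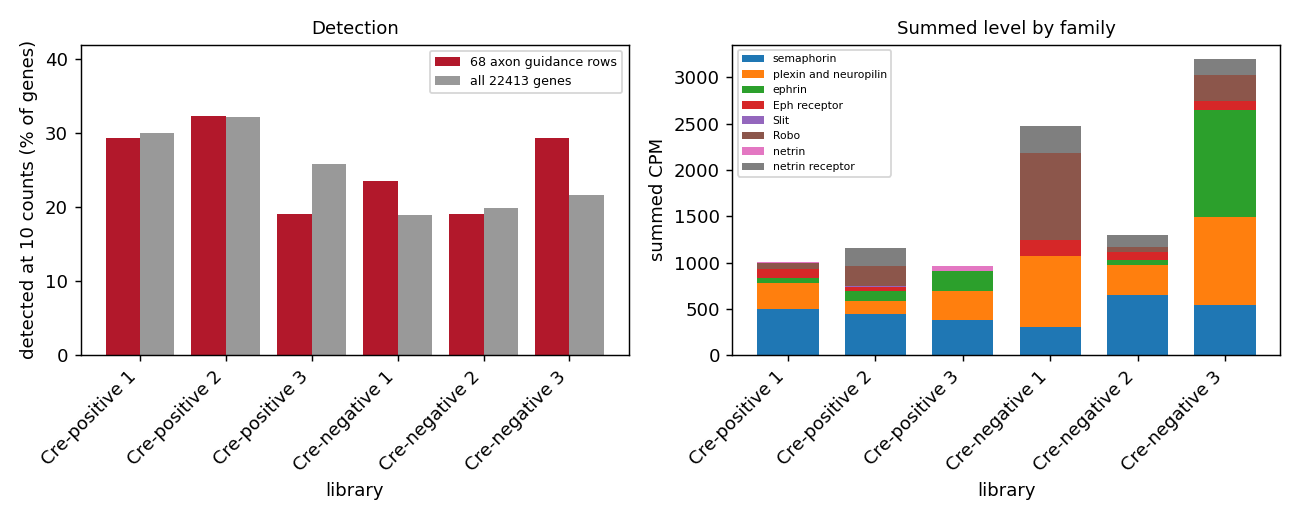
Left, percent of the 68 axon guidance rows (red) and of all 22413 genes (grey) with at least 10 counts in each library. Right, summed CPM of the guidance genes in each library, stacked by family (1 library per bar, so no error bars). The Cre-positive libraries sum to 966 to 1160 CPM and the Cre-negative libraries to 1301 to 3194 CPM; with TMM scaling the groups overlap.

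A gene that was present in one library was often at or near 0 in the next. Of the 408 values (68 rows in 6 libraries), 208 were 0, 96 were 1 to 9 counts, 19 were from 10 to under 100, 47 from 100 to under 1000 and 38 were 1000 or more. The values nearest below the threshold were 8 counts, of Sema6d in Cre-negative 2 and Sema6b in Cre-positive 1 among others, and those nearest above it were 12 counts of Plxna4 in Cre-positive 2 and 13 counts of Robo3 in Cre-negative 1. In all, 45 rows reached 10 counts in some library (66.2% of the 68, against 53.4% of all genes). Of these 45, 19 (42.2%) did so in 1 library only, 23 in 2 to 4, 3 in 5 and 0 in all 6. Among the 11977 genes of the whole table detected somewhere, 32.7% were in 1 library and 9.99% in all 6. A single library held at least 90% of the summed CPM for 21 of the 45 guidance genes (46.7%), against 35.2% of all genes detected somewhere. Cre-positive 1, 2 and 3 were the highest library for 10, 4 and 4 of the 45 (22.2%, 8.89% and 8.89%, against 18.5%, 18.9% and 17.3% of all genes detected somewhere). Cre-negative 1, 2 and 3 were the highest for 9, 6 and 12 (20%, 13.3% and 26.7%, against 14.1%, 14.7% and 16.5%). The remaining 23 rows had between 1 and 12 counts over all 6 libraries together, among them Slit2, Slit3, Ephb3, Ntn3, Ntn4 and Plxnb3.

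**Figure D2:**
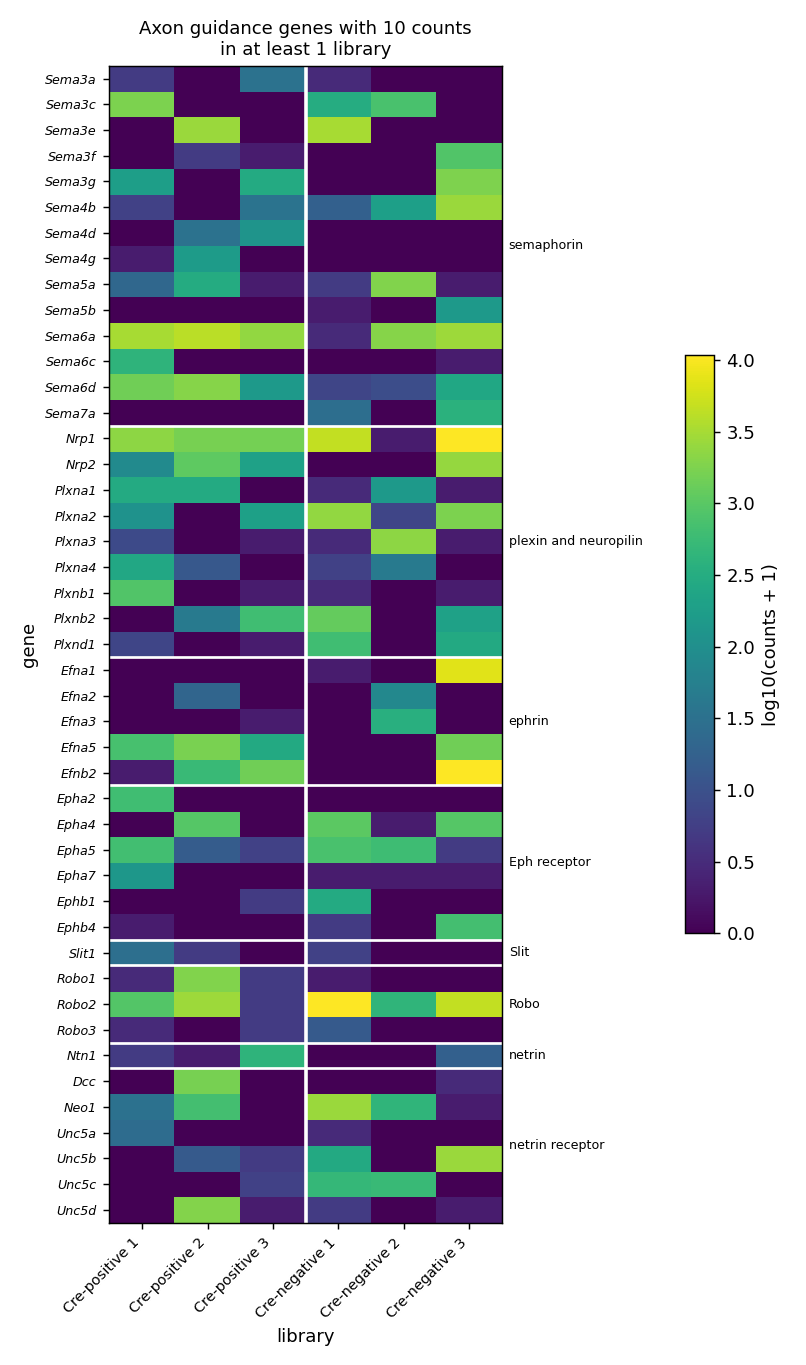
Counts of the 45 axon guidance genes that reached 10 counts in at least 1 library, as log10(counts + 1), with genes down the page by family and the 6 libraries across (white vertical line between genotypes). Most rows are bright in some libraries and dark in others of the same genotype, and no row is bright in all 6.

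The summed level of the guidance genes in CPM was lower in every Cre-positive library than in every Cre-negative library, while with TMM scaling, which corrects totals for composition, the groups overlapped. In CPM it was 1005, 1160 and 966 CPM in Cre-positive 1, 2 and 3, against 2481, 1301 and 3194 CPM in Cre-negative 1, 2 and 3. Per kilobase the groups were also separate, at 102, 104 and 89.4 FPKM (counts scaled to gene length and library total, as deposited) in the Cre-positive libraries and 229, 137 and 578 FPKM in the Cre-negative libraries. With TMM scaling the sums were 1206, 1170 and 900 CPM in the Cre-positive libraries and 2834, 1083 and 2977 CPM in the Cre-negative libraries. Single genes made up large parts of these sums. In Cre-negative 3, Nrp1, Efnb2 and Efna1 were at 655, 644 and 430 CPM, and in Cre-negative 1 Robo2 was at 934 CPM. The largest value in Cre-negative 2 was Plxna3 at 302 CPM. In Cre-positive 1, 2 and 3 it was Sema6a, at 227, 197 and 296 CPM. No test was run over the members. Each Cre-negative library also spread its counts over fewer detected genes, and the part of that in the sums was not tested.

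The Cre-positive and Cre-negative libraries were compared gene by gene, and no axon guidance gene passed. Not all guidance rows were tested: the low-count filter of edgeR kept 17 of the 68 (25%, against 25.6% of all genes). Of them 0 had a Benjamini-Hochberg adjusted p under 0.05 in edgeR's quasi-likelihood test, as was so for 0% of the 5727 genes tested, and the smallest adjusted p among them was 1.00. An unadjusted p under 0.05 was found for 0 guidance genes, against 4.91% of all genes tested (4.49% higher and 0.419% lower in the Cre-positive group). DESeq2 called 1 of the 20 guidance genes to which it gave an adjusted p (Sema7a), against 15% of all genes with one, and limma voom called 0, against 1.54% of all. Of the 17 log2 fold changes in edgeR, 5 were positive and 12 negative, and their median was -1.26. Over all genes tested 54.2% were positive and the median was 0.14. Scaled with DESeq2's size factors in place of TMM, the medians were -1.54 for the 17 and -0.13 for all genes tested, so both moved down together. Without Cre-negative 3, 9 of 22 tested guidance genes were positive and their median was -0.98, beside a median of 0.56 for all genes. With the sample number as a block the median of the 17 was 0.08, beside 1.10 for all genes.

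**Figure D3:**
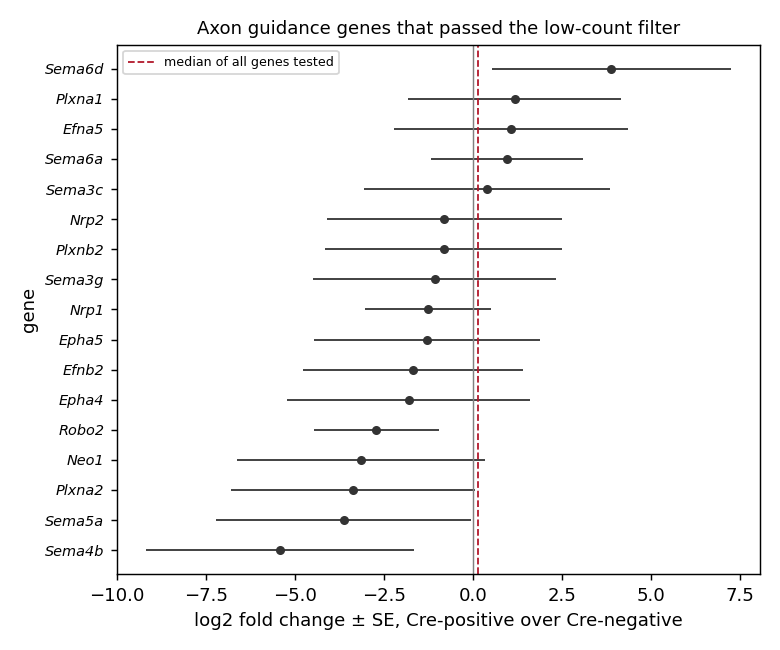
Log2 fold change, Cre-positive over Cre-negative, with its SE (edgeR, 3 libraries per group) for the 17 axon guidance genes that passed the low-count filter, ordered by size. Values run from -5.42 for Sema4b to 3.89 for Sema6d, none passed the adjusted threshold, and the dashed line marks the median of all 5727 genes tested (0.14).

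Among the semaphorin ligands, Sema6d and Sema6a were found in every Cre-positive library. Sema6d (mm10 chromosome 2, 124089943 to 124667789) encodes a transmembrane ligand of plexin-A1 that acts at the mouse optic chiasm. It was at 102, 96.4 and 19.0 CPM in Cre-positive 1, 2 and 3, against 0.517, 1.07 and 15.1 CPM in Cre-negative 1, 2 and 3. Every Cre-positive value lay above every Cre-negative value, with the lowest of the first and the highest of the second close together. It was the only tested guidance gene whose groups did not overlap in this direction, and 0 did so in the other, against 10.4% and 2.3% of all genes tested. Its log2 fold change was 3.89 ± 3.36 (SE), with an unadjusted p of 0.261 and an adjusted p of 1.00 in edgeR, and ran from 3.30 without Cre-negative 1 to 6.71 without Cre-negative 3. Over all 68 rows, 3 had every Cre-positive value above every Cre-negative value and 0 had the reverse, against 4.8% and 0.799% of all genes. The other two were Robo1, described with its family, and the Sema7a receptor Plxnc1, with 5, 2 and 1 counts in the Cre-positive libraries and 0 in each Cre-negative library.

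Sema6a (chromosome 18, 47245254 to 47371200), a ligand of plexin-A2 and plexin-A4 that helps to lay out the inner plexiform layer of the mouse retina, was the steadiest guidance gene. It was at 227, 197 and 296 CPM in the Cre-positive libraries, against 0.172, 271 and 168 CPM in the Cre-negative libraries. A single library, Cre-negative 1, was low with 2 counts, and the other 5 lay between 168 and 296 CPM. The means were 240 ± 50.7 CPM in the Cre-positive group and 147 ± 137 CPM in the Cre-negative group (SD, n = 3 each), with a log2 fold change of 0.95 ± 2.13 and an adjusted p of 1.00 in edgeR (0.37 without Cre-negative 1 to 1.62 without Cre-negative 2). Per length, Sema6a ranked 5th, 8th and 5th among the 68 rows in the Cre-positive libraries and 44th, 5th and 15th in the Cre-negative libraries. These ranks rest on the length implied by the deposited FPKM, 33447 bases for Sema6a against 9735 for Nrp1.

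Sema4b and Sema5a had their highest values in the Cre-negative group, while the class 4 genes Sema4d and Sema4g were detected only in Cre-positive libraries. Sema4b, a transmembrane class 4 semaphorin, was at 0.359, 0 and 4.07 CPM in the Cre-positive libraries, against 1.38, 25.1 and 166 CPM in the Cre-negative libraries. The ranges overlapped, since Cre-positive 3 lay above Cre-negative 1. Its log2 fold change was -5.42 ± 3.76 (unadjusted p = 0.164, adjusted p = 1.00 in edgeR). Cre-negative 3 held 84.3% of its summed CPM, and the fold change ran from -8.11 without Cre-positive 3 to -2.97 without Cre-negative 3. Sema5a, which with Sema5b keeps inner retinal neurites in place in the mouse through plexin-A1 and plexin-A3, was at 1.51, 14.5 and 0.123 CPM in the Cre-positive libraries and 0.345, 247 and 0.0611 CPM in the Cre-negative libraries. Thus 1 library held 93.7% of its summed CPM, and its log2 fold change of -3.63 ± 3.58 turned to 4.53 without Cre-negative 2 and was -6.08 without Cre-positive 2. Sema4d, the ligand of plexin-B1, had 0, 32 and 123 counts in the Cre-positive libraries and 0 in each Cre-negative library, at least 42.5-fold higher against 3 counts taken as the floor of the whole group, or at least 10.8-fold higher without Cre-positive 3. Sema4g had 163 counts in Cre-positive 2, 1 in Cre-positive 1 and 0 elsewhere.

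Sema7a, a lipid-anchored semaphorin that binds plexin-C1 and integrins, had 0 counts in each Cre-positive library and 28, 0 and 377 counts in Cre-negative 1, 2 and 3. It was at least 164-fold lower in the Cre-positive group against the same floor, which covers counting error only, and at least 21.1-fold lower without Cre-negative 3. DESeq2 gave it a log2 fold change of -9.58 ± 3.43 and an adjusted p of 0.0378, while edgeR's filter did not keep it. Most of its counts came from Cre-negative 3, the library with the high endothelial markers, and the part of those cells in this difference was not tested.

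Class 3 semaphorins, which are secreted, were present in a few libraries each. Sema3c had 1739, 0 and 0 counts in the Cre-positive libraries and 316, 753 and 0 in the Cre-negative libraries. Sema3e, the plexin-D1 ligand that needs no neuropilin, had 0, 2709 and 0 counts in the Cre-positive libraries and 3169, 0 and 0 in the Cre-negative libraries. Each of these genes was thus at a high level in some libraries of both genotypes and at 0 in the rest. Sema3g, a ligand of neuropilin 2, had 184, 0 and 292 counts in the Cre-positive libraries against 0, 0 and 1788 in the Cre-negative libraries, and Sema3f, another, reached 10 counts only in Cre-negative 3, with 881. The repellent Sema3a was detected only in Cre-positive 3, with 32 counts. Sema6c had 422 counts in Cre-positive 1 and at most 1 elsewhere, and Sema5b 149 counts in Cre-negative 3 and at most 1 elsewhere.

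Of the semaphorin receptors, Nrp1 was the most abundant per length. Nrp1 (chromosome 8, 128358591 to 128505476) encodes neuropilin 1, which binds class 3 semaphorins and vascular endothelial growth factor and is found on ganglion cell axons and on endothelium. It was at 161, 76.1 and 193 CPM in the Cre-positive libraries, against 395, 0.134 and 655 CPM in the Cre-negative libraries. Cre-negative 2 had 1 count, while the other Cre-negative libraries lay above all Cre-positive ones. The means were 143 ± 60.5 CPM in the Cre-positive group and 350.2 ± 329.9 CPM in the Cre-negative group (SD, n = 3 each). Its log2 fold change of -1.26 ± 1.77 (adjusted p = 1.00 in edgeR) turned positive with limma, on counts and on FPKM, and with the sample number as a block. It ran from -1.87 without Cre-negative 2 to -0.64 without Cre-negative 3. Per length Nrp1 ranked 2nd, 4th and 1st among the guidance rows in the Cre-positive libraries and 2nd, 19th and 2nd in the Cre-negative libraries.

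Nrp2, the partner of Sema3f and Sema3g, was at 6.10, 51.7 and 25.4 CPM in the Cre-positive libraries, against 0, 0 and 151 CPM in the Cre-negative libraries. Leaving out Cre-negative 3, Nrp2, Sema6d and Efna5 were the 3 guidance genes detected in every Cre-positive library and in neither of the other Cre-negative libraries. The same pattern was found for 5.06% of all genes detected in those 5 libraries. Unc5c was the 1 guidance gene with the reverse pattern in those libraries, which 0.617% of all genes had. With Cre-negative 3 kept, 0 guidance genes were detected in every Cre-positive and no Cre-negative library, against 2.29% of all genes detected somewhere, and 0 had the reverse pattern, against 0.134%.

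The plexins, the signalling receptors, were spread thinly. Plxna2, a receptor of Sema6a, was at 8.18, 0 and 24.1 CPM in the Cre-positive libraries, against 205, 0.801 and 106 CPM in the Cre-negative libraries. The highest values were in 2 of the Cre-negative libraries and the ranges overlapped, with a log2 fold change of -3.37 ± 3.43 (adjusted p = 1.00 in edgeR). It ran from -4.56 without Cre-positive 3 to -2.30 without Cre-negative 1. Plxna1, the receptor of Sema6d, had 287, 292 and 0 counts in the Cre-positive libraries and 2, 152 and 1 in the Cre-negative libraries. Plxna3 was detected only in Cre-negative 2, with 2262 counts, and Plxnb1 only in Cre-positive 1, with 854. Plxna4 had 262, 12 and 0 counts in the Cre-positive libraries against 5, 43 and 0 in the Cre-negative libraries. Its opposite-strand neighbour Plxna4os1 had 8 counts in Cre-negative 1 and 0 elsewhere. Plxnb2 had 0, 43 and 625 counts in the Cre-positive libraries against 1221, 0 and 202 in the Cre-negative libraries. Plxnd1, a receptor of endothelial cells for Sema3e, was not detected in any Cre-positive library, with 6, 0 and 1 counts, against 625, 0 and 284 in the Cre-negative libraries.

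**Figure D4:**
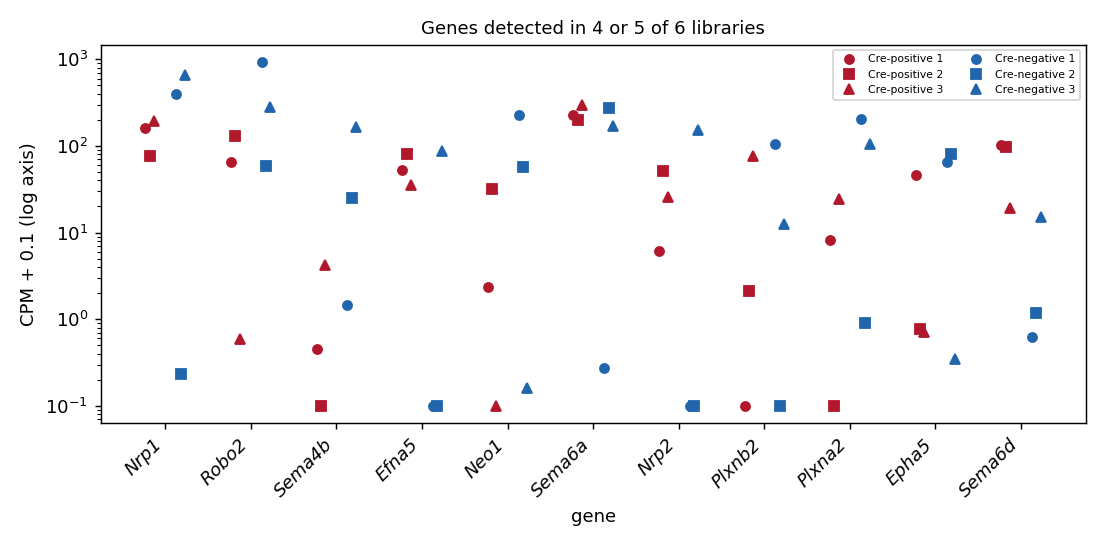
CPM + 0.1 on a log axis for the 11 axon guidance genes detected in 4 or 5 libraries, ordered by mean FPKM; red points are Cre-positive and blue points Cre-negative libraries, and the marker shape gives the library number. Sema6d is the gene whose red points all lie above its blue points, and Sema6a has 5 points between 168 and 296 CPM.

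Ephrins differed among themselves in where they were found. Efna5 (chromosome 17, 62602957 to 62881317), a repellent cue graded across the mouse retina and its target in the midbrain, was at 52.5, 80.0 and 35.1 CPM in Cre-positive 1, 2 and 3, against 0, 0 and 88.0 CPM in Cre-negative 1, 2 and 3. The Cre-positive libraries all held it, while the Cre-negative group had the highest value and both zeros. Efnb2, a ligand of EphB receptors in dorsal retina and on arteries, was at 0.0718, 25.5 and 179 CPM in the Cre-positive libraries, against 0, 0 and 644 CPM in the Cre-negative libraries. Its log2 fold change was -1.68 ± 3.09 (adjusted p = 1.00 in edgeR) and turned to 12.61 without Cre-negative 3, against -4.00 without Cre-positive 3. Efna1, an ephrin of endothelial cells, had 7032 counts in Cre-negative 3, 1 in Cre-negative 1 and 0 in the remaining libraries. That single library put it first among the guidance genes by mean FPKM, at 43.6 ± 107 FPKM over 6 libraries (SD). Efna2 had 20 counts in Cre-positive 2 and 76 in Cre-negative 2, and Efna3 had 346 in Cre-negative 2 and at most 1 elsewhere. Exons of Efna3 overlap those of an antisense transcript, Gm15998, which had 0 counts in Cre-negative 2.

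Eph receptors were mostly absent or confined to single libraries. Of the 13, 6 reached 10 counts somewhere, and Cre-positive 3 detected 0. Epha5, found on temporal ganglion cells in the mouse, had 646, 14 and 5 counts in the Cre-positive libraries and 753, 599 and 4 in the Cre-negative libraries. Epha4, which binds both ephrin classes, had 0, 927 and 0 counts in the Cre-positive libraries against 1039, 1 and 924 in the Cre-negative libraries. Epha2 and Epha7 were detected only in Cre-positive 1, with 626 and 138 counts, and Ephb1, a receptor of uncrossed ganglion cell axons in the mouse, only in Cre-negative 1, with 291. Ephb4, the receptor of venous endothelium, was detected only in Cre-negative 3, with 683 counts.

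Slits were close to absent, while a Robo receptor was among the most abundant guidance genes. Slit1 had 29 counts in Cre-positive 1, Slit2 at most 5 and Slit3 at most 1 in any library. Robo2 (chromosome 16, 73891976 to 75447443), the main Slit receptor of mouse ganglion cells, was at 64.7, 130 and 0.494 CPM in the Cre-positive libraries, against 934, 58.2 and 279 CPM in the Cre-negative libraries. The Cre-negative group held the highest 2 values and the Cre-positive group the lowest, with overlap between Cre-positive 1 and 2 and Cre-negative 2. The means were 65.2 ± 65.0 CPM in the Cre-positive group and 424 ± 456 CPM in the Cre-negative group (SD, n = 3 each). Robo2 had the smallest unadjusted p of the tested guidance genes, 0.140 in edgeR, with a log2 fold change of -2.71 ± 1.77 and an adjusted p of 1.00. Cre-negative 1 held 63.7% of its summed CPM, and the log2 fold change was -1.23 ± 3.04 without that library, -3.05 ± 1.59 without Cre-negative 3 and -3.51 without Cre-positive 2. Robo1 had 1883 counts in Cre-positive 2 and at most 4 elsewhere, Robo3, a regulator of commissural axons, had 13 in Cre-negative 1, and the endothelial Robo4 had 4 counts in Cre-negative 1 and 0 elsewhere.

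Netrin 1, the attractant of the optic disc, was found mainly in 1 library. Ntn1 had 4, 1 and 426 counts in the Cre-positive libraries and 0, 0 and 16 in the Cre-negative libraries. Its receptor Dcc had 0, 1594 and 0 counts in the Cre-positive libraries and 0, 0 and 2 in the Cre-negative libraries, so no library detected both. Neo1, a Dcc relative that also binds repulsive guidance molecules, was at 2.22, 31.8 and 0 CPM in the Cre-positive libraries, against 230 (library 1), 57.4 (library 2) and 0.0611 CPM (library 3) in the Cre-negative group. Its log2 fold change was -3.14 ± 3.48 (adjusted p = 1.00 in edgeR), and the values of the groups overlapped. Cre-negative 1 held 71.5% of its summed CPM, and the fold change was -6.19 without Cre-positive 2 and -1.03 without Cre-negative 1. Of the repulsive Unc5 receptors, Unc5c had 0, 0 and 5 counts in the Cre-positive libraries against 484, 547 and 0 in the Cre-negative libraries. Unc5d had 0, 1933 and 1 counts in the Cre-positive libraries against 4, 0 and 1 in the Cre-negative libraries. Unc5b, a receptor of endothelial tip cells, had 0, 13 and 4 counts in the Cre-positive libraries against 285, 0 and 2719 in the Cre-negative libraries. Unc5a reached 26 counts in Cre-positive 1 and at most 2 elsewhere.

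Several guidance genes that endothelial cells use were highest in Cre-negative 3, where the endothelial markers were also highest. These were Efna1, Efnb2, Ephb4, Nrp1, Unc5b and Sema3g, and the grouping was made after the values were seen. Cre-negative 3 was also the highest library for Efna5, Nrp2, Sema3f, Sema4b, Sema5b and Sema7a. In all it was the highest for 12 of the 45 guidance genes detected somewhere (26.7%, against 16.5% of all genes detected somewhere). Of the 14 endothelial markers, 7, 7 and 10 were detected in Cre-positive 1, 2 and 3 and 5, 1 and 13 in Cre-negative 1, 2 and 3, with summed levels of 382 to 851 CPM in the Cre-positive group and 36.1 to 8394 CPM in the Cre-negative group. Cdh5, the endothelial cadherin, was at 97.8, 70.3 and 261 CPM in the Cre-positive libraries and 156, 1.07 and 1451 CPM in the Cre-negative libraries. Not every vascular guidance gene followed, since Plxnd1 was highest in Cre-negative 1 (625 counts) and Robo4 had 0 counts in Cre-negative 3. Of the 10 Müller glia markers, 4, 4 and 4 were detected in the Cre-positive libraries and 3, 6 and 5 in the Cre-negative libraries, with sums of 874 to 2263 CPM and 1350 to 6599 CPM. The 6599 CPM were those of Cre-negative 3, where Vim alone, an intermediate filament gene that other cells use too, gave 5867 CPM, while Glul was at 38.97 CPM and Aqp4 at 0. Without Vim, a sum added after the values were seen, the range was 131 to 509 CPM in the Cre-positive libraries, against 512, 1232 and 732 CPM in Cre-negative 1, 2 and 3. The part of these cells in the guidance results was not tested.

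Ligands and their receptors were detected together in some libraries only. How often unrelated pairs of genes were detected together was not computed, so the counts of pairs have no background beside them. Of 45 textbook pairs of members, 22 had both partners at 10 counts or more in some library and none did so in more than 3. The pairs seen together numbered 10, 8 and 3 in Cre-positive 1, 2 and 3, against 2, 5 and 8 in Cre-negative 1, 2 and 3, so the groups overlapped. Of the 22, 7 were seen in Cre-positive libraries only, 7 in Cre-negative libraries only and 8 in both. Sema6d with Plxna1 was detected in Cre-positive 1 and 2 and in no Cre-negative library, and Efna5 with Epha5 likewise. Sema6a with Plxna2, Sema6a with Plxna4, Sema5a with Plxna1 and Sema3g with Nrp2 were each found in 2 Cre-positive libraries and 1 Cre-negative library. Robo2 was detected with a Slit only in Cre-positive 1. The pairs seen in Cre-negative libraries only were each found in 1 library: Sema3e with Plxnd1 in Cre-negative 1, Sema5a with Plxna3 and Efna3 with Epha5 in Cre-negative 2, and Sema3f with Nrp2, Efna1 with Epha4, Efnb2 with Ephb4 and Ntn1 with Unc5b in Cre-negative 3.

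Genes that act beside or downstream of these receptors did not pass the test either. Of 78 effectors, adhesion partners and modifiers of guidance, 75 were in the table, 66 were detected somewhere and 9 nowhere. Of the 66, 12 were detected in all 6 libraries (18.2%, against 9.99% of all genes detected somewhere), and 39 of the 75 passed the low-count filter (52.0%, against 25.6% of all genes). Of the 39, 0 passed the adjusted threshold in edgeR and 0 had an unadjusted p under 0.05, with 19 log2 fold changes positive and 20 negative and a median of -0.09. Cdc42, a small GTPase of the growth cone, was at 859, 1288 and 1196 CPM in the Cre-positive libraries. The Cre-negative libraries had 374, 796 and 691 CPM. Every Cre-positive value lay above every Cre-negative value, as for 10.4% of all genes tested. The log2 fold change of Cdc42 was 0.98 ± 0.58 (unadjusted p = 0.103, adjusted p = 1.00 in edgeR). Dpysl2, which encodes the semaphorin effector CRMP2, had a log2 fold change of -0.09 ± 0.53 and 5245 to 48388 counts in the Cre-positive libraries against 12159 to 18859 in the Cre-negative libraries. Gsk3b (-0.55 ± 0.56), Rac1 (0.54 ± 0.99) and the actin-severing Cfl1 (0.06 ± 0.90) were detected in every library as well. The fold changes of Dpysl2, Gsk3b, Rac1 and Cfl1 were not followed with libraries left out. The list's smallest unadjusted p in edgeR was that of Lrrc4c, a netrin-G ligand, at 0.102. It had 1, 1 and 14 counts in the Cre-positive libraries against 1542, 414 and 4 in the Cre-negative libraries. DESeq2 gave Lrrc4c an adjusted p of 0.0473, but it called 15% of all genes with an adjusted p. Nfasc, a cell adhesion molecule of the axon initial segment, and Mical3, of the family of actin-oxidising semaphorin effectors, had log2 fold changes of -5.82 ± 3.98 and -4.19 ± 3.55, and that of Mical3 turned to 1.37 without Cre-negative 2. With 1 library left out that of Lrrc4c ran from -9.81 to -5.24 and that of Nfasc from -8.56 to -5.22.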

How the data were processed

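The authors deposited raw counts per gene and FPKM for 22413 genes in 6 libraries, with 0 columns from any other sample. The submitters' processing notes name mm10, the read trimmer fastp, the aligner HISAT2, the counter HTSeq, DESeq2 and R 3.2.0. Strand setting, filters and annotation were not given in the sources used here, so reads of a gene and of an antisense partner cannot be separated. The FPKM, as deposited, are the counts over the column total and 1 length per gene (relative difference at most 6.45e-07), and served only for levels between genes.

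Members and lists were chosen with earlier results of these data known. Detection means 10 counts. Genotypes were compared with edgeR 4.0.16 in R 4.3.3 (TMM, filterByExpr, robust quasi-likelihood test, Benjamini-Hochberg over all 5727 genes tested, threshold 0.05), with genotype as the only term. Alternatives were DESeq2 1.42.0 (16513 genes without an adjusted p), limma 3.58.1 (voom, or log2 of FPKM plus 1 or 0.1), other scalings and filters, a replicate block, other detection thresholds, thinning to 7486359 counts, and each library left out. Each count test was first run on simulated counts, and the outcome of those runs is not given here. The SE of each edgeR log2 fold change is approximate: it is the size of the fold change over the square root of the test's F statistic. Fold changes are named for members that passed the filter and were detected in 5 or more libraries, did not overlap between genotypes, or had 1 of the 8 smallest p-values. Others passing the filter appear in the plot of fold changes. Other guidance genes were named by the 4 smallest p-values and the 4 highest mean CPM among those detected in all 6 libraries. Where a group is at 0, the bound on the fold takes 3 counts over that group, for counting error only; per library 3 counts are 0.142 to 0.401 CPM. All 68 symbols were found in RefSeq's GRCm38.p6 (mm10), which gave the coordinates.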

Additional observations from a re-analysis of the deposited data

How the results depend on the processing

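In edgeR the counts of genes past the adjusted threshold were 0 higher and 0 lower in the Cre-positive group. They were 744 and 141 with DESeq2 and 82 and 6 with limma voom, and with 1 library left out they ran from 0 to 7 higher and 0 to 1 lower. Of axon guidance genes, 1 passed with DESeq2 and 0 under each other alternative run. At an unadjusted p under 0.05 there were 0 of 17 axon guidance genes in edgeR and 1 of 17 with limma voom. There were 6 with DESeq2, run without the low-count filter, and 1 of 68 in edgeR without that filter. A filter of 10 counts in at least 2 libraries gave 2 of 26, and leaving out 1 library gave 0 to 2 of 21 to 25. Of all genes, 4.91% were under 0.05 in the main edgeR fit, and the share is not given here for the alternatives. Leaving out 1 library moved the fold change by over 1.5-fold in 32 of 77 values, touching 12 of the 13 genes followed (all but Cdc42). Of the 13, 1 came to pass the threshold under an alternative (Lrrc4c with DESeq2, -6.88). The log2 fold change of Efnb2 turned to 3.27 with limma voom, 0.95 on log2(FPKM + 0.1), 3.42 with the replicate block and 12.61 without Cre-negative 3 (-4.00 to 12.61 with 1 library left out). That of Nrp1 turned to 0.84 with limma voom, 0.0536 on log2(FPKM + 1), 1.02 on log2(FPKM + 0.1) and 0.0821 with the block. Sema5a turned to 0.0201 with the block and 4.53 without Cre-negative 2 (-6.08 to 4.53 with 1 library left out), and Mical3 to 1.27 and 1.37 under the same settings (-4.76 to 1.37). The cause was not tested. The block changed no call: it gave 0 genes past the adjusted threshold. Deviations of same-numbered libraries were correlated at -0.02, 0.03 and -0.01 across genes. Libraries with different numbers gave -0.05 to 0.05, and libraries this variable cannot show whether the numbers pair the samples. At a threshold of 1 count, 34 members were detected per Cre-positive library and 32.7 per Cre-negative library, and 1 member was in every Cre-positive and no Cre-negative library. With 1 library left out that pattern held 0 to 3 members and its reverse 0 to 2. Beside these counts, the share of all genes was computed only without Cre-negative 3 (5.06%, and 0.617% for the reverse). Thinned to equal depth, 20, 18 and 13 members were detected in Cre-positive 1, 2 and 3 and 15, 13 and 19 in Cre-negative 1, 2 and 3. Of all genes, 6278, 6867 and 5742 were then detected in the Cre-positive libraries and 4062, 4463 and 4648 in the Cre-negative libraries. With a biological coefficient of variation of 2.04 and 3 libraries per group, the SE of the named log2 fold changes limits what could be detected.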
